A study of Mus musculus with 40 samples.

Results

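The 7 genes described here, *Scn1a*, *Scn2a*, *Scn3a*, *Scn8a*, *Scn2b*, *Scn3b* and *Scn4b*, encode subunits of the voltage-gated sodium channels of neurons, and they are 7 of the 47643 genes in the deposited count tables. They were selected on their names, and with earlier results of these libraries known: *Scn2b* was singled out because its level moved in opposite directions in the 2 brain regions after colonization. The post-KD against pre-KD values of the members are therefore given as a description, and where the number of members called in these contrasts is printed beside that of all genes, nothing is read from it. RNA-seq was run on hippocampal and frontal cortical tissue of wild-type Swiss Webster mice, an outbred strain, which were germ-free until colonized, ate a standard control diet and, by the study's methods, were female and 6 to 8 weeks old. Each cohort received by gavage the stool of 1 of 10 donors with epilepsy, taken either before their ketogenic diet began (pre-KD) or during it (post-KD), and brains were collected on day 4. This gives 20 cohorts, with both regions sequenced from each, and 40 libraries in 4 groups of n = 10. Each library pooled 6 mice, so that the replicate is the cohort and the spread between the mice of a pool is not seen. No group without human microbiota was analysed here, and pre-KD is the control throughout.

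Voltage-gated sodium channels open when the membrane is depolarized and carry the inward current of the rising phase of the action potential. An alpha subunit forms the pore and holds the voltage sensors, and beta subunits, which are single-pass membrane proteins with an immunoglobulin-like domain, bind to it, alter its gating and its delivery to the membrane and act in cell adhesion. Channels are packed at the axon initial segment, where the action potential starts, and at the nodes of Ranvier, and several members are known epilepsy genes.

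On mm10 (positions from GENCODE M21), 3 of the alpha subunit genes lie together on chromosome 2. *Scn3a* (ENSMUSG00000057182), which encodes Nav1.3, the alpha subunit most abundant before birth, spans chr2:65457118-65567627 on the minus strand. *Scn2a* (ENSMUSG00000075318), which encodes Nav1.2 of excitatory axons, spans chr2:65620771-65767447 on the plus strand. *Scn1a* (ENSMUSG00000064329), which encodes Nav1.1, prominent in fast-spiking inhibitory interneurons and the gene of Dravet syndrome, spans chr2:66270778-66440840 on the minus strand. *Scn8a* (ENSMUSG00000023033), which encodes Nav1.6 of the distal initial segment and the nodes, spans chr15:100869858-101045938. The beta subunit genes lie on the plus strand of chromosome 9. *Scn3b* (ENSMUSG00000049281), whose product binds the alpha subunit without a covalent link, spans chr9:40269217-40291618. *Scn2b* (ENSMUSG00000070304), whose product is joined to the alpha subunit by a disulfide bond, spans chr9:45117782-45130070. *Scn4b* (ENSMUSG00000046480), whose product is also disulfide-bonded and is known for resurgent sodium current, spans chr9:45138395-45154152, 8324 bases after the end of *Scn2b*. All 7 are protein-coding. Genes on the opposite strand overlap *Scn1a* (Gm13630, 54 counts over 40 libraries), *Scn3a* (Gm13595, 0 counts), *Scn2b* (Gm10684, 0 counts) and *Scn3b* (Gm47266, whose counts were not analysed here), and the strand setting of the counting is not given in the sources used here.

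Between 1140756 and 1947416 reads were counted per hippocampal library and between 1188447 and 2095352 per frontal cortical library. Levels are given in CPM, counts scaled to a common library total (per 1000000 reads) after TMM normalization of the 40 libraries together. Tissue markers followed the labels: 6 hippocampal tissue markers summed to between 776 and 1228 CPM in hippocampal libraries and between 436 and 778 CPM in frontal cortical libraries, whereas 6 frontal cortical markers summed to between 131 and 496 CPM and between 355 and 566 CPM. Y-linked genes summed to 10 CPM or more in 9 libraries of 5 cohorts, although the methods name female mice, and stayed at or below 2.27 in the other libraries. 3 of those cohorts were pre-KD and 2 post-KD.

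Per kb of exon, *Scn2b* and *Scn2a* were the highest members in both regions and *Scn3a*, *Scn3b* and *Scn4b* the lowest. In the hippocampus, the mean level was 38.1 ± 10.5 CPM per kb for *Scn2b* (SD, n = 20 libraries) and 35.7 ± 6.82 for *Scn2a*. These 2 genes did not differ beyond their spread, with *Scn2b* above *Scn2a* in 12 of 20 libraries. *Scn8a* followed at 19.2 ± 3.53 CPM per kb and *Scn1a* at 15.4 ± 5.18, a step smaller than the larger of the SDs. *Scn3b* was at 9.96 ± 4.47, *Scn3a* at 5.40 ± 2.86 and *Scn4b* at 1.16 ± 1.32 CPM per kb. Of the steps between neighbours in this order, those from *Scn2a* to *Scn8a* and from *Scn3a* to *Scn4b* were wider than the SDs of both genes added together. In the frontal cortex, *Scn2b* was at 44.7 ± 10.2 CPM per kb, *Scn2a* at 36.4 ± 4.14, *Scn1a* at 21 ± 4.59 and *Scn8a* at 19.3 ± 3.04. *Scn4b* at 9.54 ± 2.67, *Scn3b* at 8.17 ± 2.75 and *Scn3a* at 6.35 ± 2.15 came last, and their ranges of 1 SD around the mean overlapped. The order depends on the length scale: on CPM with no length *Scn2a* came first in both regions, at 455 ± 86.8 CPM in the hippocampus, against 464 ± 52.7 CPM in the frontal cortex. The labels name a TruSeq kit, which reads whole transcripts, and the study's resource list also names a QuantSeq FWD kit, which reads transcript ends and needs no length scale.

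**Figure D1:**
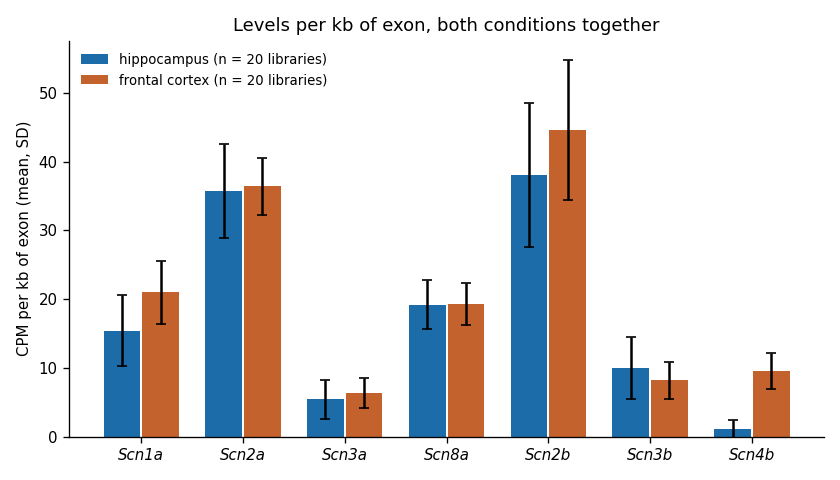
Mean level of each member in CPM per kb of exon, with bars for the hippocampus and the frontal cortex and error bars of 1 SD over the 20 libraries of a region. Scn2b (38.1 and 44.7) and Scn2a (35.7 and 36.4) stand highest, and Scn4b is the member whose bars differ most, at 1.16 in the hippocampus, against 9.54 in the frontal cortex.

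Among the alpha subunits, *Scn2a* made up the most of the summed level per kb, with 47.1% ± 6.45 of it in hippocampal libraries (SD, n = 20) and 44.0% ± 3.76 in frontal cortical ones. *Scn8a* held 25.5% ± 4.22 and 23.4% ± 3.61, *Scn1a* 20.3% ± 6.35 and 25.1% ± 4.02, and *Scn3a* 7.15% ± 3.95 and 7.57% ± 2.29. The summed alpha level was 75.7 ± 9.19 CPM per kb in the hippocampus, against 83.1 ± 8.79 in the frontal cortex. Among the 3 beta subunit members, *Scn2b* held 76.9% ± 10.2 (hippocampus) and 70.9% ± 6.34 (frontal cortex). The rest of the beta sum was almost entirely *Scn3b* in the hippocampus, at 20.7% ± 9.89 against 2.31% ± 2.53 for *Scn4b*. Frontal cortical libraries had both, at 13.3% ± 4.47 for *Scn3b* and 15.7% ± 5.09 for *Scn4b*.

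The difference between regions was not used to choose the members and was tested. *Scn4b* and *Scn1a* were higher in the frontal cortex than in the hippocampus of the same cohorts, and the other 5 members did not pass the threshold over the 20 cohorts. *Scn4b* lay between 0 and 23.1 CPM in hippocampal libraries, with a mean of 5.78 ± 6.58, and between 24.4 and 83.9 CPM in frontal cortical libraries, with a mean of 47.5 ± 13.3 (SD, n = 20). The regions did not overlap, though for how many of all genes this held was not counted. *Scn4b* was higher in the frontal cortex of 20 of 20 cohorts. The ratio of the means was 8.23, and the log2 fold change fitted with a term for each cohort was 3.73 (SE 0.40, edgeR quasi-likelihood test with Benjamini-Hochberg adjustment over all genes, adjusted p = 4.5e-18). The fitted value rests on few hippocampal counts, 181 summed over 20 libraries by adding 118 pre-KD and 63 post-KD counts, and 5 of these libraries held none, which allows up to 1.70 to 2.63 CPM in each (counting error only). Without the cohort term the log2 fold change was 3.06. *Scn1a* ranged from 55.4 to 275 CPM in the hippocampus (mean 172 ± 57.8) and from 114 to 318 CPM in the frontal cortex (mean 234 ± 51.1). The ranges overlapped, and 17 of 20 cohorts had the higher level in the frontal cortex, at a log2 fold change of 0.50 (SE 0.11, edgeR adjusted p = 0.000666). Within the pre-KD cohorts alone *Scn1a* was at 0.56 and within the post-KD cohorts alone at 0.44, with adjusted p of 0.0593 and 0.13, each from 10 cohorts.

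In a permutation test over the 20 cohorts that flips the sign of each cohort's difference in log2 CPM, two-sided and unadjusted, *Scn1a* gave p = 0.00206 and *Scn4b* p = 2e-05, the smallest that 100000 resamples can give. *Scn2b*, at 177 ± 48.8 CPM in the hippocampus, against 208 ± 47.5 in the frontal cortex, had a log2 fold change of 0.24 (SE 0.11) and an edgeR adjusted p of 0.394. With the 10 post-KD cohorts alone it was at 0.65 and with the pre-KD cohorts alone at -0.17. This split follows the pattern *Scn2b* was chosen for and is given with no p. *Scn3a* had 0.35 (SE 0.19, adjusted p = 0.519). *Scn2a* was at 0.04 and *Scn8a* at 0.01, with 95% intervals of the fold from 0.922 to 1.15 and from 0.887 to 1.15. *Scn3b*, at 54.4 ± 24.4 CPM in the hippocampus, against 44.6 ± 15 in the frontal cortex, was at -0.22, with an interval from 0.632 to 1.17. The median over all 19422 genes tested was itself 0.17 in this fit, above the values of *Scn2a* and *Scn8a*, and the value of *Scn8a* turned negative under 5 of 18 alternatives, down to -0.05. Of all genes tested, 554 passed the adjusted threshold of 0.05, or 2.85%, and of the 7 members, all of which passed the filter on low counts of these comparisons, 2 did.

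Other genes of the family, those of muscle (*Scn4a*), glia (*Scn7a*) and peripheral sensory neurons (*Scn9a*, *Scn10a* and *Scn11a*), were near or at the floor. *Scn4a* had 0 counts in all 40 libraries, which allows up to 0.0465 CPM over the series, and *Scn10a* had 8 counts. *Scn7a* had 202 counts and *Scn9a* 288 over the 40 libraries. *Scn11a* had 46 counts, of which 37 were in 1 hippocampal library. Of these 5 genes, 3 could be tested between regions and 0 passed the adjusted threshold in edgeR, with 0 at an unadjusted p under 0.05.

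Genes typical of the striatum moved with *Scn4b* between regions. *Scn4b* is itself known to be abundant in striatal projection neurons. Of 8 striatal neuron markers, 7 could be tested, and 7 were higher in the frontal cortical libraries at an adjusted p under 0.05, with a median log2 fold change of 3.32 against 0.17 for all genes. *Adora2a*, the adenosine receptor of indirect-pathway neurons, was at 4.73 (SE 0.62), *Penk*, which encodes the enkephalin precursor, at 3.32 (SE 0.16) and *Drd1*, the D1 dopamine receptor, at 2.88 (SE 0.24). Summed over the list, the level was 57.4 to 342 CPM in hippocampal libraries and 580 to 1285 CPM in frontal cortical ones, and *Drd2*, the D2 dopamine receptor, was the marker with too few counts to test. The 20 libraries of a region come from separate cohorts and differ in depth, and differences in dissection between them were not tested. Across these libraries, log2 CPM of *Scn4b* and the log2 sum of the list correlated at Pearson's r = 0.40 (Spearman's rho = 0.36) in the frontal cortex and at 0.07 (0.05) in the hippocampus. In bulk tissue, more cells of a type and more RNA per cell cannot be told apart, and the part of striatal tissue in the difference of *Scn4b* was not tested. Markers of inhibitory neurons, in which *Scn1a* is prominent, were also higher in the frontal cortex, 5 of 5 with a positive log2 fold change. Of these, 2 passed the edgeR adjusted threshold, *Gad1* at 0.49 (SE 0.14, adjusted p = 0.0178) and *Gad2* at 0.50 (SE 0.14, adjusted p = 0.0121), which encode the enzymes of GABA synthesis. In the same libraries 7 of 7 striatal markers tested were higher, and the part of striatal tissue in the inhibitory markers was not tested. Of 4 markers of parvalbumin interneurons, 2 passed, *Syt2*, a calcium sensor of fast transmitter release, at a fold of 2.72 and *Tac1*, the substance P precursor that striatal neurons also express, at a fold of 7.99. Of 8 general neuron markers, 6 had positive values, with a median over the list of 0.08, and 2 passed, *Rbfox3*, a neuronal splicing factor, at 0.34 (SE 0.07) and *Eno2*, the neuronal enolase, at 0.31 (SE 0.07). Of 4 excitatory neuron markers, 4 had negative values, with a median of -0.63, and 2 passed, *Neurod6* at -1.09 (SE 0.16) and *Neurod2* at -0.91 (SE 0.11), which encode transcription factors of these neurons. The part of these neuron markers in the difference of *Scn1a* was not tested.

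**Figure D2:**
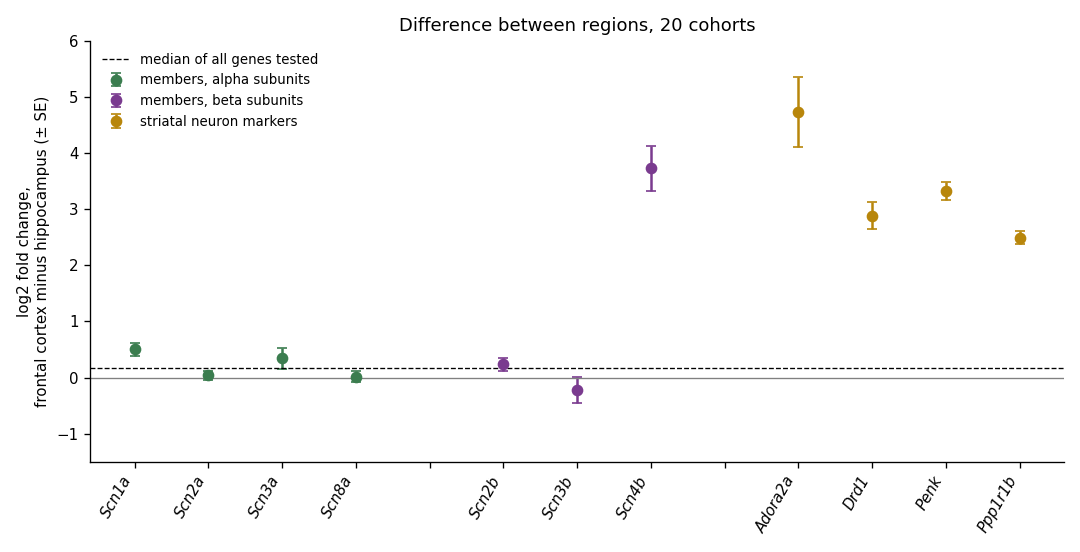
Log2 fold change of frontal cortex minus hippocampus with its SE for the 7 members and for the 4 striatal neuron markers named in the text, fitted over 20 cohorts. The dashed line is the median of all genes tested (0.17), and Scn4b, at 3.73, lies among these striatal markers, which run from 2.49 to 4.73.

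Between post-KD and pre-KD cohorts, the alpha subunits moved by less than the spread between libraries, and their groups overlapped in both regions. Hippocampal *Scn2a* ranged from 332 to 602 CPM with a median of 464 pre-KD, and from 304 to 553 CPM with a median of 428 post-KD, a log2 fold change of -0.12 (SE 0.13) that lay between -0.18 (without donor 5) and -0.04 (without donor 8) when 1 donor was left out. In the frontal cortex it ranged from 354 to 591 CPM with a median of 486 pre-KD and from 403 to 478 CPM with a median of 450 post-KD, a log2 fold change of -0.14 (SE 0.10). The post-KD frontal cortical libraries were the tightest of any member and group, with a coefficient of variation of 5.99%, where counting alone would give 3.61%. *Scn8a* ranged from 231 to 419 CPM pre-KD and from 206 to 368 CPM post-KD in the hippocampus, with medians of 309 and 281 and a log2 fold change of -0.18 (SE 0.15). For 8 of 10 donors the post-KD level was the lower one. Frontal cortical *Scn8a* had medians of 301 and 305 CPM and a log2 fold change of -0.06 (SE 0.12), and 6 of 10 donors were lower post-KD, but without donor 9 the value was 0.01.

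*Scn1a* was the alpha subunit with positive values in both regions. Hippocampal libraries ranged from 55.4 to 246 CPM pre-KD and from 117 to 275 CPM post-KD, with medians of 163 and 188 and a log2 fold change of 0.23 (SE 0.19). This value fell to 0.06 without donor 7 and to 0.03 with limma-voom quality weights. Frontal cortical libraries ranged from 114 to 286 CPM pre-KD and from 172 to 318 CPM post-KD, with medians of 213 and 237 and a log2 fold change of 0.13 (SE 0.13), or 0.06 without donor 7 or donor 8 and 0.07 without donor 1. In each region 5 of 10 donors were higher post-KD. *Scn3a*, the least abundant alpha subunit, ranged from 24.2 to 141 CPM pre-KD and from 15.5 to 133 CPM post-KD in the hippocampus and had log2 fold changes of -0.15 (SE 0.30) there and -0.08 (SE 0.21) in the frontal cortex. Neither direction held throughout: the hippocampal value was 0.10 without donor 5, and the frontal cortical one was 0.04 without donor 9 or donor 10 and 0.07 with limma-voom quality weights. Its coefficient of variation reached 55.0% in hippocampal post-KD libraries, where counting alone would give 10.3%, and the 95% interval of its fold ran from 0.602 to 1.35. For *Scn2a* that interval ran from 0.767 to 1.11 in the hippocampus, against from 0.796 to 1.04 in the frontal cortex.

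**Figure D3:**
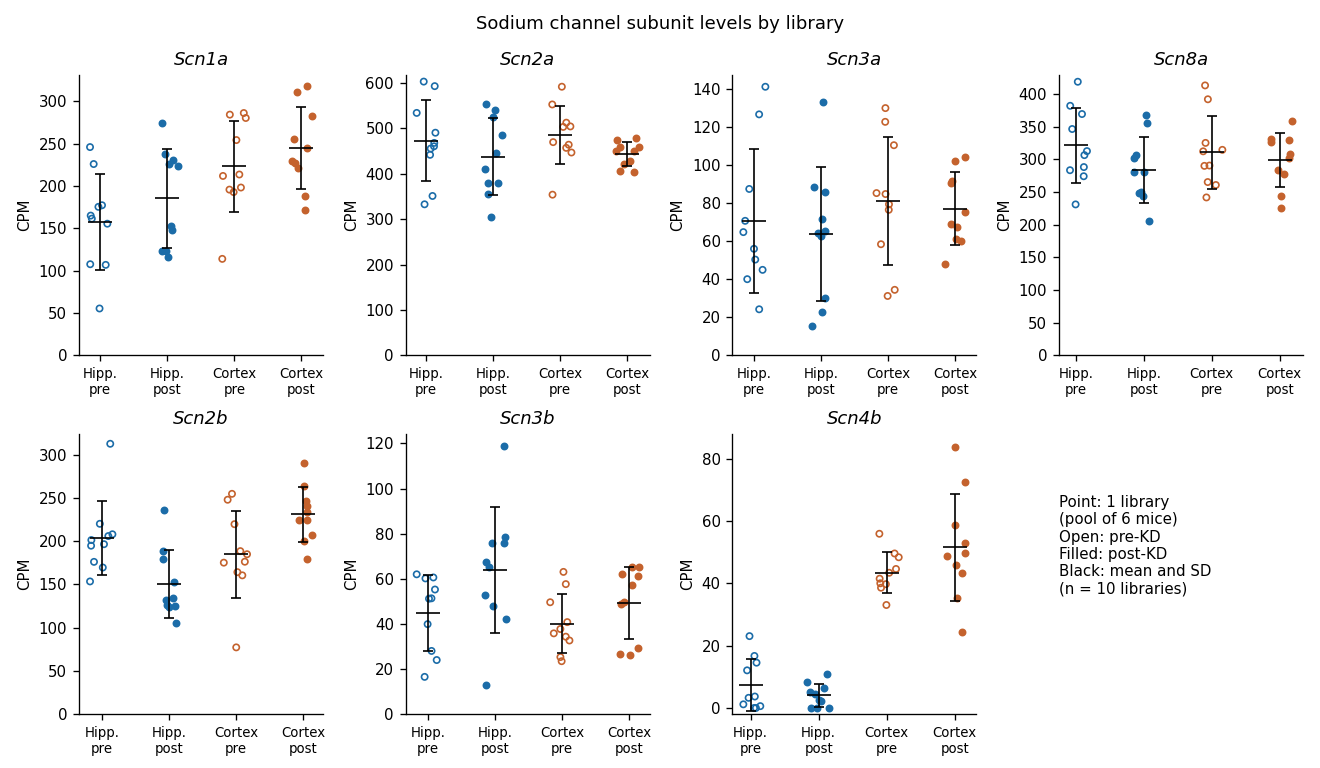
CPM of each member in every library, with open points for pre-KD, filled points for post-KD and black marks for the mean and SD of the 10 libraries of a group. Every member's pre-KD and post-KD points overlap within a region, and Scn4b is the member whose hippocampal (0 to 23.1) and frontal cortical (24.4 to 83.9) points do not overlap. For how many of all genes either holds was not counted.

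*Scn2b* was lower post-KD in the hippocampus and higher post-KD in the frontal cortex, which is the pattern it was chosen for. Hippocampal libraries lay between 154 and 313 CPM pre-KD, with a median of 199, and between 106 and 236 CPM post-KD, with a median of 133. The groups overlapped, and the post-KD library was the lower one for 9 of 10 donors, donor 6 being the exception which went from 170 to 236 CPM. The means were 204 ± 43.1 and 150 ± 39.6 CPM (SD, n = 10), and the log2 fold change was -0.45 (SE 0.18), a fold of 0.734. Frontal cortical libraries lay between 77.3 and 255 CPM pre-KD, with a median of 181, and between 179 and 291 CPM post-KD, with a median of 230. The groups overlapped here too, and 7 of 10 donors were higher post-KD. The means were 185 ± 50.4 and 231 ± 32.1 CPM, and the log2 fold change was 0.32 (SE 0.14), a fold of 1.25.

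The widest steps of *Scn2b* came from 2 donors. Donor 10 went from 313 to 106 CPM in the hippocampus, the highest pre-KD and the lowest post-KD library, and without its cohorts the log2 fold change was -0.31. Donor 1 went from 77.3 to 291 CPM in the frontal cortex, the lowest pre-KD and the highest post-KD library, and without its cohorts the log2 fold change was 0.19. Leaving out any 1 donor gave values from -0.56 to -0.31 (hippocampus) and from 0.19 to 0.40 (frontal cortex). For 6 of 10 donors the change was downward in the hippocampus and upward in the frontal cortex of the same cohorts, and for 0 donors it was the reverse. In pre-KD cohorts *Scn2b* was higher in the frontal cortex of 5 of 10 cohorts and in post-KD cohorts of 10 of 10. The post-KD change in the frontal cortex minus that in the hippocampus was 0.82 on the log2 scale (SE 0.23) in the fit with a term for each cohort. It ranged from 0.69 to 0.91 when 1 donor was left out.

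**Figure D4:**
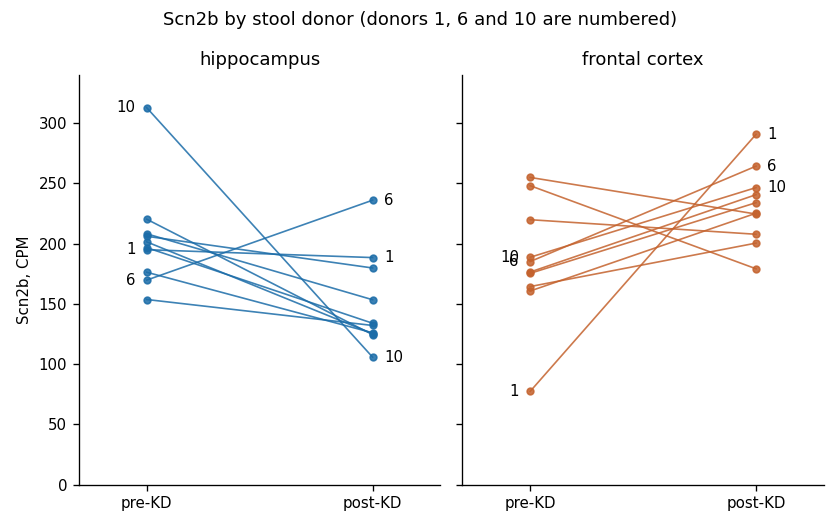
CPM of Scn2b in the pre-KD and post-KD library of each of 10 donors, joined by a line, in the hippocampus and the frontal cortex. In the hippocampus 9 lines fall and that of donor 6 rises, and in the frontal cortex 7 rise, with donor 1 the steepest (77.3 to 291 CPM).

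The other beta subunits differed less, relative to their spread. *Scn3b* ranged from 16.5 to 62.0 CPM pre-KD and from 13.1 to 119 CPM post-KD in the hippocampus, with medians of 51.3 and 66.5 and a log2 fold change of 0.50 (SE 0.31), or 0.29 with limma-voom quality weights. Frontal cortical libraries ranged from 23.5 to 63.1 CPM pre-KD and from 26.0 to 65.4 CPM post-KD, with medians of 36.8 and 53.5 and a log2 fold change of 0.29 (SE 0.25), or 0.18 without donor 3. The post-KD level of *Scn3b* was the higher one for 6 of 10 donors (hippocampus) and 7 of 10 (frontal cortex). With *Scn2b* lower and *Scn3b* higher in post-KD hippocampal libraries, the share of *Scn3b* in the beta sum was 26.1% ± 10.7 post-KD and 15.4% ± 5.33 pre-KD there. Frontal cortical shares of *Scn3b* were 13.2% ± 4.70 post-KD and 13.5% ± 4.48 pre-KD. *Scn4b* in the hippocampus had 0 counts in 5 libraries, 2 pre-KD and 3 post-KD, and no more than 40 in any library, and its log2 fold change of -0.88 (SE 1.10) changed sign with limma-voom quality weights. In the frontal cortex *Scn4b* ranged from 33.1 to 56.0 CPM pre-KD and from 24.4 to 83.9 CPM post-KD, with a log2 fold change of 0.24 (SE 0.23), or 0.13 without donor 8 and 0.11 with limma-voom quality weights. Its SD was 6.50 CPM pre-KD and 17.1 CPM post-KD.

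**Figure D5:**
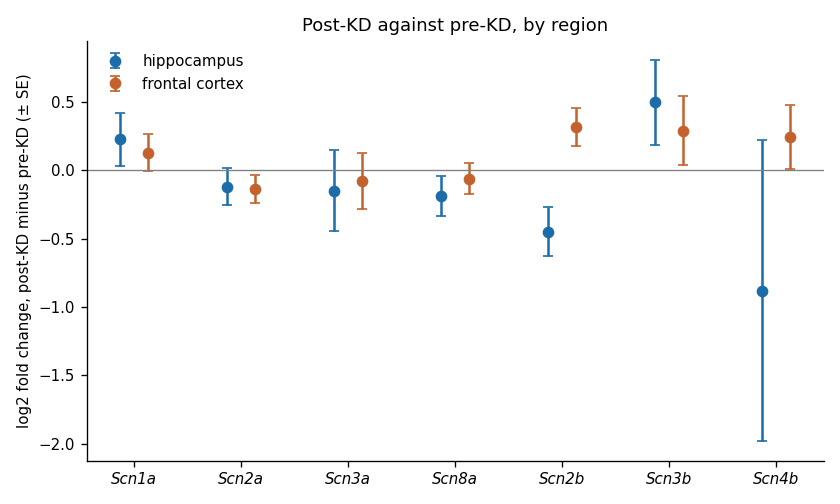
Log2 fold change of post-KD minus pre-KD with its SE for each member, in the hippocampus and the frontal cortex, 10 libraries a group. Scn2b has values of opposite sign (-0.45 and 0.32), as it was chosen to have, and the bar of hippocampal Scn4b is the longest (SE 1.10).

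At an unadjusted p under 0.05, 1 of the 7 members, *Scn2b*, was called in the hippocampus, where 10.1% of 17529 genes were, and 1 of 7, again *Scn2b*, in the frontal cortex, where 9.68% of 17873 genes were. The call was lost without donor 10 in the hippocampus and without donor 1 or donor 6 in the frontal cortex. At an adjusted p under 0.05, edgeR called 0 of 7 members in either region, against 0.0057% of all genes (hippocampus) and 0.0056% (frontal cortex), 1 gene in each. The hippocampal count depended on the filter for low counts: with no filter 1291 genes passed, against 1 in the frontal cortex. DESeq2 also called 0 members after adjustment. For the difference of the changes between regions, 1 of 7 members had an unadjusted p under 0.05, against 2.22% of 19422 genes. *Scn2b* was chosen on these contrasts, so its calls were fixed by the choice. The median log2 fold change of the members was -0.15 (hippocampus) and 0.13 (frontal cortex), beside -0.01 and 0.01 for all genes tested.

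Of the marker lists, those of the striatum, of parvalbumin interneurons (-0.06 and 0.11) and of Y-linked genes had median log2 fold changes of the same sign as *Scn2b* in both regions. In the hippocampus 7 of 7 striatal markers tested were lower post-KD, with a median log2 fold change of -0.56, and 1 of them, *Ppp1r1b*, which encodes the phosphatase inhibitor DARPP-32, had an unadjusted p under 0.05 (-0.64, SE 0.29). Post-KD frontal cortex had 5 of 7 higher, and 2 of them passed that threshold, among them *Penk* at 0.28 (SE 0.13). The summed striatal level ran from 124 to 342 CPM in pre-KD and from 57.4 to 257 CPM in post-KD hippocampal libraries, and from 580 to 1221 and from 826 to 1285 CPM in the frontal cortex. Of 4 blood markers 3 were tested, all globin genes. In post-KD frontal cortex *Hba-a1* was at 0.49, *Hbb-bs* at 0.41 and *Hbb-bt* at -0.01, with unadjusted p of 0.00163, 0.00691 and 0.962, whereas in the hippocampus, where *Scn2b* was lower, 3 of 3 were higher, with a median of 0.14. Choroid plexus markers had medians of 0.35 (hippocampus) and -0.59 (frontal cortex), opposite in sign to *Scn2b*, and Y-linked genes had -0.05 and 0.79, both lists with 0 genes at an unadjusted p under 0.05. Of the genes of these 5 lists, 0 passed the adjusted threshold in edgeR. Of 8 neuron markers, 6 were lower and 2 higher in post-KD hippocampus, with a median of -0.07, and *Nefl*, a neurofilament gene, had an unadjusted p under 0.05 (-0.29, SE 0.14). Post-KD frontal cortex had 4 lower and 4 higher, with a median of -0.01. These markers summed to 5657 to 6914 CPM in pre-KD and 5435 to 6371 CPM in post-KD hippocampal libraries, and to 6170 to 7365 CPM and 6111 to 6941 CPM in the frontal cortical ones. The part of these genes in the values of *Scn2b* was not tested.

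Genes whose products hold, bind or modify the channels were compared in the same fits, in which 10.1% (hippocampus) and 9.68% (frontal cortex) of all genes tested had an unadjusted p under 0.05. Of 16 genes that anchor channels at the initial segment and the nodes, 1 had an unadjusted p under 0.05 in the hippocampus, *L1cam*, an adhesion molecule bound by ankyrin, at -0.52 (SE 0.24), and it was at 0.35 (SE 0.18) in the frontal cortex. In the frontal cortex 1 did, *Cntn2*, an adhesion molecule beside the nodes, at -0.37 (SE 0.18). Of 17 genes that bind or regulate the channels, 0 had such a p in the hippocampus and 4 did in the frontal cortex. They were *Camk2a*, a kinase that phosphorylates the channel, at -0.20 (SE 0.07), *Calm3*, 1 of the 3 calmodulin genes, at -0.22 (SE 0.09), *Fgf13*, an intracellular growth factor homologue that binds the C terminus of the channel, at 0.47 (SE 0.23), and *Prkcb*, a protein kinase C gene, at 0.18 (SE 0.09). Neither region had such a gene among 3 of the sodium leak channel complex or 12 of the sodium pump and the sodium-calcium exchangers. After adjustment over all genes edgeR called 0 genes of these lists in either region, the lowest adjusted p being 0.152 for *Camk2a*.

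Between regions, edgeR's adjusted threshold was passed by 2 of 16 anchoring genes, 2 of 17 binding or regulating genes and 0 of 3 leak channel genes, against 2.85% of all genes. *Cntn2* at 0.61 (SE 0.16, adjusted p = 0.007) and *Cntnap2*, which clusters potassium channels beside the nodes, at 0.49 (SE 0.15, adjusted p = 0.0398) were higher in the frontal cortex. *Prkcb* was higher there at 0.37 (SE 0.07, adjusted p = 1.6e-06), and *Fgf13* was lower at -0.68 (SE 0.18, adjusted p = 0.0108). Of the leak channel complex, *Unc79* at 0.71 (SE 0.32) and *Unc80* at -0.19 (SE 0.11) had the smallest p and adjusted p of 0.34 and 0.561.

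After the mean of each group was removed, the 7 members had little in common across the 40 libraries. Pearson's r of log2 CPM ran from -0.21 to 0.44 over the 21 pairs of members, with a median of 0.05. The highest were *Scn1a* with *Scn2b* at 0.44 (Spearman's rho = 0.28) and *Scn8a* with *Scn4b* at 0.41 (rho = 0.40), and the chromosome 9 neighbours *Scn2b* and *Scn4b* were at -0.04. These values describe libraries that share donors and regions and differ in depth. Among 7671 genes averaging at least 20 counts in each region, the closest to *Scn2b* were *Tmem147* (r = 0.65), *Ddhd1* (0.62) and *Slc7a14* (0.60). The closest to *Scn1a* were *Clk1*, *Sh3bgrl3* and *Ogfr* (0.64 to 0.65), and to *Scn2a* they were *Amn1*, *Ddit4l* and *Ccdc137* (0.67 to 0.68). For *Scn3a* they were *Ddit3*, *Fkbp2* and *Dpm1* (0.59 to 0.62), and for *Scn8a* *Dld*, a gene listed only as ENSMUSG00000051107 and *Phlpp1* (0.59 to 0.61). For *Scn3b* they were *Orc3*, *Sdhaf2* and *Mrrf* (0.63 to 0.70), and for *Scn4b*, which is itself below that count in the hippocampus, *Epop*, *Map7d1* and *Uba6* (0.62 to 0.63). None of the closest genes of a member was another member.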

How the data were processed

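The authors deposited 1 table of unnormalized read counts per region, with 47643 Ensembl genes in 20 libraries each. Per the labels and the methods, libraries were made with a TruSeq kit, trimmed, aligned to mm10 with STAR 2.5.2a and counted with HTSeq 0.6.0, after FastQC 0.11.5 and with samtools 1.3. The annotation release and the strand setting are not given in the sources used here. All values were whole numbers, 0 columns lacked a sample, and 0 of 180 pairs of libraries within a group were identical.

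edgeR 4.0.16 (R 4.3.3) was applied with TMM scaling and its quasi-likelihood test to every gene whose counts in the compared libraries added up to 10 or more, with Benjamini-Hochberg adjustment over every gene tested. Post-KD was compared with pre-KD within a region, and frontal cortex with hippocampus, and the difference of the changes, over 40 libraries with a term for each cohort. The threshold was 0.05. SD is over libraries, intervals are the estimate ± 1.96 SE, and log2 CPM used a prior count of 2. The members, the gene lists and the tests were chosen with earlier results of these data known. The genes named are the 7 members, the other genes of the family, genes of the related lists with an unadjusted p under 0.05 in either region, the 2 with the smallest p of each related list between regions, and the 3 genes most correlated with each member. Marker genes named were picked after their values were seen. Some genes that this rule names are not reported here.

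Donors pair the cohorts by design. Once group means were removed, both libraries of a donor correlated across genes averaging at least 20 counts at -0.03 to 0.03 (hippocampus) and -0.06 to 0.03 (frontal cortex), and the comparison had no block. Both regions of a cohort correlated at -0.03 to 0.21 over 20 pairs, also low for most. The region comparison kept its cohort term by design, since both regions come from the same pools. The methods name DESeq2, whose design formula is not given in the sources used here. The fits were checked on simulated data. The alternatives were DESeq2 1.42.0, RLE size factors, no filter, filterByExpr, the donor as a block, a Y-linked covariate, limma-voom (limma 3.58.1) with quality weights, single conditions, and leaving out each donor. A permutation test over cohorts (scipy 1.17.1) was added after the data were seen. Plots were drawn with matplotlib 3.10.9.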

Additional observations from a re-analysis of the deposited data

Results flagged for a closer look

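Of 28 groups of 10 libraries (7 genes in 4 groups), 2 held a library that stood apart from the rest by Dixon's test at 95%, where chance flags about 1 group in 20. Both were of *Scn2b*. In the hippocampus pre-KD, the library of donor 10 was at 313 CPM (449 counts) and the next at 220 CPM, a gap of 0.581 of the range of the group. In the frontal cortex pre-KD, the library of donor 1 was at 77.3 CPM (99 counts) and the next at 161 CPM, a gap of 0.469 of the range. Both are pre-KD libraries, and each lies on the side that widens the post-KD change of its region. Whether these levels come from the mice or the libraries was not tested.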

How the results depend on the processing

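Between post-KD and pre-KD, 1 member, *Scn2b*, had an unadjusted p under 0.05 in each region. It was chosen on this contrast, so nothing is read from how its call holds. The hippocampal count was 0 without donor 10, where 1719 of 17253 genes were called. It was 1 without any other donor (range 0 to 1). For the frontal cortex the count was 0 without donor 1 (1642 of 17632 genes called) or donor 6 (1570 of 17595), with a range of 0 to 1. There, voom with quality weights gave 2, *Scn2b* and *Scn2a*, where 1071 of 17873 genes were called. With the donor as a replicate block the number was 1 in each region, and the log2 fold change of *Scn2b* was -0.46 (hippocampus) and 0.35 (frontal cortex). Under every alternative that kept all donors, *Scn2b* stayed between -0.50 and -0.43 and between 0.28 and 0.36. Between regions 2 members passed the adjusted threshold, 1 with the pre-KD cohorts alone and 2 when any 1 donor was left out. *Scn1a* lost the threshold with either condition alone, at 0.56 (pre-KD) and 0.44 (post-KD). *Scn2b* was at -0.17 with the pre-KD cohorts alone and at 0.65 with the post-KD cohorts alone, which is the pattern it was chosen for. The order of the members by level changed at 11 of 14 positions with no length scale and at 8 with coding length. Of all genes, 1 passed the adjusted threshold in the hippocampus and 1291 did with no filter on low counts. An unadjusted p under 0.05 was reached by 1762 in the hippocampus (2931 with no filter, 221 with filterByExpr and 348 with the donor block) and by 1731 in the frontal cortex (3035, 407 and 548). Between regions 554 passed the adjusted threshold, and 1935 did without the cohort term. Hippocampal *Scn4b* was removed by filterByExpr and has no post-KD against pre-KD value there. Levels near a few counts, such as its, limit what can be seen at this depth.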
